A study of Mus musculus with 51 samples.

Results

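The clustered protocadherin genes lie in 3 neighbouring arrays on mouse chromosome 18, named Pcdha, Pcdhb and Pcdhg. Members were chosen by position alone in the GRCm38 build, as every clustered protocadherin gene, window of 1 kb and allelic peak between 36900001 and 37900000. This gave 58 of the 20889 protein-coding autosomal genes, 1000 of the 2462755 autosomal windows and 134 of the 144952 autosomal peaks in the 6 allelic tables. Pcdha holds 14 genes between 36930184 and 37187661, Pcdhb holds 22 genes between 37264938 and 37524479, and Pcdhg holds 22 genes between 37661793 and 37841873. All 58 genes are on the plus strand, and their gene models came from GENCODE mouse release 21.

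Clustered protocadherins are cell-surface adhesion proteins of the cadherin superfamily, best known for giving neurons an individual surface identity. In Pcdha and Pcdhg each variable exon has its own promoter and is spliced to constant exons shared by the whole array, whereas the Pcdhb genes are single-exon genes without such shared exons. The C-type genes at the ends of Pcdha and Pcdhg (Pcdhac1, Pcdhac2, Pcdhgc3, Pcdhgc4 and Pcdhgc5) are used more uniformly by neurons than the other variable exons, and the choice among the latter is known to depend on CTCF, cohesin and DNA methylation set in the early embryo by Dnmt3b. Of the marks measured here, H3K27me3 is the product of Polycomb repressive complex 2, H3K4me3 marks promoters and H3K36me3 marks transcribed gene bodies.

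The libraries came from ultra-low-input native ChIP-seq of E6.5 mouse conceptuses, dissected into epiblast (Epi), which gives rise to the embryo proper, and extra-embryonic ectoderm (ExE), a precursor of the placenta. Wild-type embryos were reciprocal hybrids of C57BL/6 (B6) and CAST, with the mother written first (B6/CAST and CAST/B6). In matDKO/CAST embryos the mothers were floxed for Dnmt3a and Dnmt3b and carried Zp3-cre, which is active in the growing oocyte. Their oocytes lacked both DNA methyltransferases, the embryos inherited 1 deleted copy of each gene from the mother, and the CAST father contributed intact copies. These mothers had a mixed B6/129 background, so the allele that is not CAST is not purely B6 in that cross. Each of the 18 combinations of tissue, cross and mark had 2 libraries, each from a pool of 4 epiblasts or 8 ExE, and 15 inputs were sequenced beside them. The authors split the chromatin of a pool between the antibodies and inputs, so libraries of different marks can share embryos. In pooled tissue, fewer cells carrying a mark and less of the mark per cell cannot be told apart.

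Depth ranged from 2090000 to 22900000 reads over the 36 ChIP libraries. For H3K27me3 it was 3680000 to 14800000 reads in Epi and 10300000 to 22900000 in ExE. The tissue labels were checked on H3K4me3 summed over marker promoters in the 4 wild-type libraries of each tissue. The 6 epiblast markers summed to 150 to 201 RPKM in Epi and 75.4 to 107 in ExE, where RPKM is reads per kilobase of window, scaled to library size. The 7 ExE markers summed to 87.3 to 120 RPKM in Epi and 123 to 169 in ExE, although Elf5 stayed under 0.5 RPKM in both tissues and Esrrb in ExE. The 8 visceral endoderm markers, another cell type that a dissection could hold, summed to 39.4 to 60.9 RPKM of H3K4me3 in Epi and 46.7 to 76.1 in ExE, with no marker under 0.5 RPKM, and to 16.3 to 29.1 and 6.50 to 12.2 RPKM of H3K27me3. Their part in the differences given here was not tested.

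The protocadherin promoters were rich in H3K27me3 and poor in H3K4me3 when set against other promoters. A promoter was taken as the mean of the 3 windows around a gene's start site. The median Pcdhg promoter had 8.90 RPKM of H3K27me3 in Epi, at percentile 99 of all promoters, where the median promoter had 0.382 RPKM. The median Pcdha promoter (3.84 RPKM) was at percentile 93.4 and the median Pcdhb promoter (2.49 RPKM) at 88.8. In ExE the same medians were 4.38, 2.57 and 1.97 RPKM, at percentiles 97.4, 90.4 and 86.2. For H3K4me3 in Epi the medians were 2.37 RPKM for Pcdhg, 0.659 for Pcdha and 0.147 for Pcdhb, at percentiles 39.2, 34.9 and 22.4. Over the 12 libraries of each mark, both marks averaged at least 2 RPKM at 13 Pcdhg promoters and 1 Pcdha promoter, Pcdhac2, but at none of the 22 Pcdhb promoters.

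**Figure D1:**
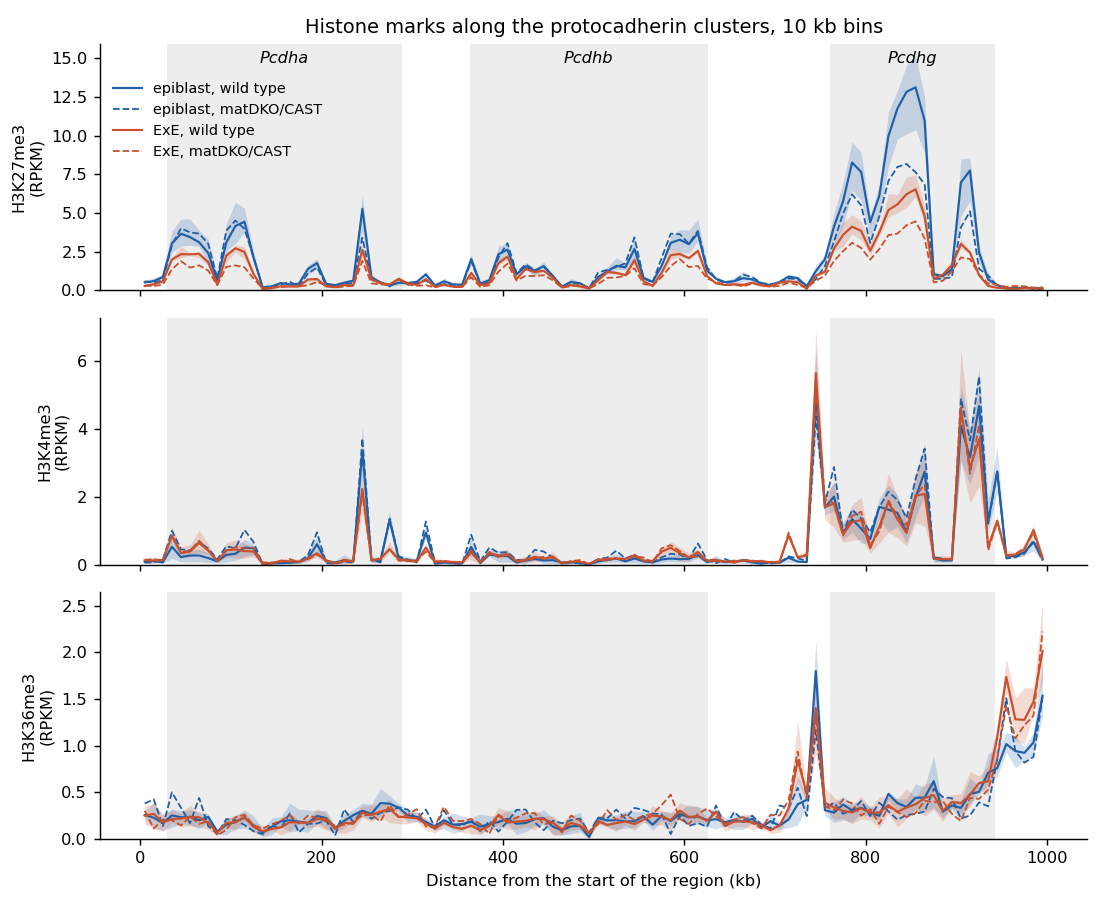
Mean RPKM of each mark in bins of 10 kb along the region, with distance from the region's first base in kb on the x axis, wild-type Epi (blue) and ExE (orange) as solid lines with the range of their 4 libraries as bands, matDKO/CAST as dashed lines, and the 3 clusters shaded grey. H3K27me3 is highest over Pcdhg, where the bin at 855 kb averages 13.1 RPKM in Epi and 6.54 RPKM in ExE, and lower over Pcdha and Pcdhb.

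The profile along the region shows H3K27me3 over all 3 clusters, with the highest bin in Pcdhg. In that bin, 855 kb from the start of the region, the wild-type libraries ranged from 10.4 to 15.2 RPKM in Epi and from 6.06 to 7.47 RPKM in ExE, without overlap. The bin at 915 kb, which holds the start sites of the C-type genes Pcdhgc4 and Pcdhgc5, had 7.75 RPKM in Epi and 2.44 RPKM in ExE. H3K4me3 rose in narrow peaks, the highest bin at Taf7 between Pcdhb and Pcdhg and most others within Pcdhg, while H3K36me3 stayed low over the clusters and was highest at Taf7 and towards Diaph1 at the far end.

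H3K27me3 was lower in ExE than in Epi over each cluster as a whole. Averaged over its 181 windows, Pcdhg had 4.97 and 6.33 RPKM in B6/CAST Epi and 7.28 and 7.01 in CAST/B6 Epi. The ExE values were 3.01 and 2.94 RPKM in B6/CAST and 3.69 and 3.33 in CAST/B6. Every ExE library was below every Epi library, and the means of 6.40 ± 1.03 and 3.24 ± 0.342 RPKM (SD, n = 4) differed 1.96-fold. Over the 258 windows of Pcdha the Epi libraries held 1.56, 2.05, 1.71 and 1.54 RPKM and the ExE libraries 1.08, 1.04, 1.18 and 1.05 RPKM, a 1.57-fold difference of means. Over the 261 windows of Pcdhb they held 1.40, 1.85, 1.52 and 1.36 RPKM in Epi and 1.16, 1.10, 1.21 and 1.09 RPKM in ExE, a 1.34-fold difference. Neither array's tissues overlapped. The exact two-sided permutation test gave p = 0.0286 for each cluster, the smallest value that 4 against 4 libraries allow, and 0.0857 after Benjamini-Hochberg adjustment over the 9 pairs of cluster and mark. Within B6/CAST alone the log2 differences for Pcdha, Pcdhb and Pcdhg were −0.75, −0.52 and −0.91, and within CAST/B6 alone −0.54, −0.32 and −1.03. Whether the clusters differ from each other in this was not tested. The inputs held 0.406 and 0.413 RPKM over Pcdha in Epi and ExE, 0.401 and 0.419 over Pcdhb, and 0.511 and 0.496 over Pcdhg.

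**Figure D2:**
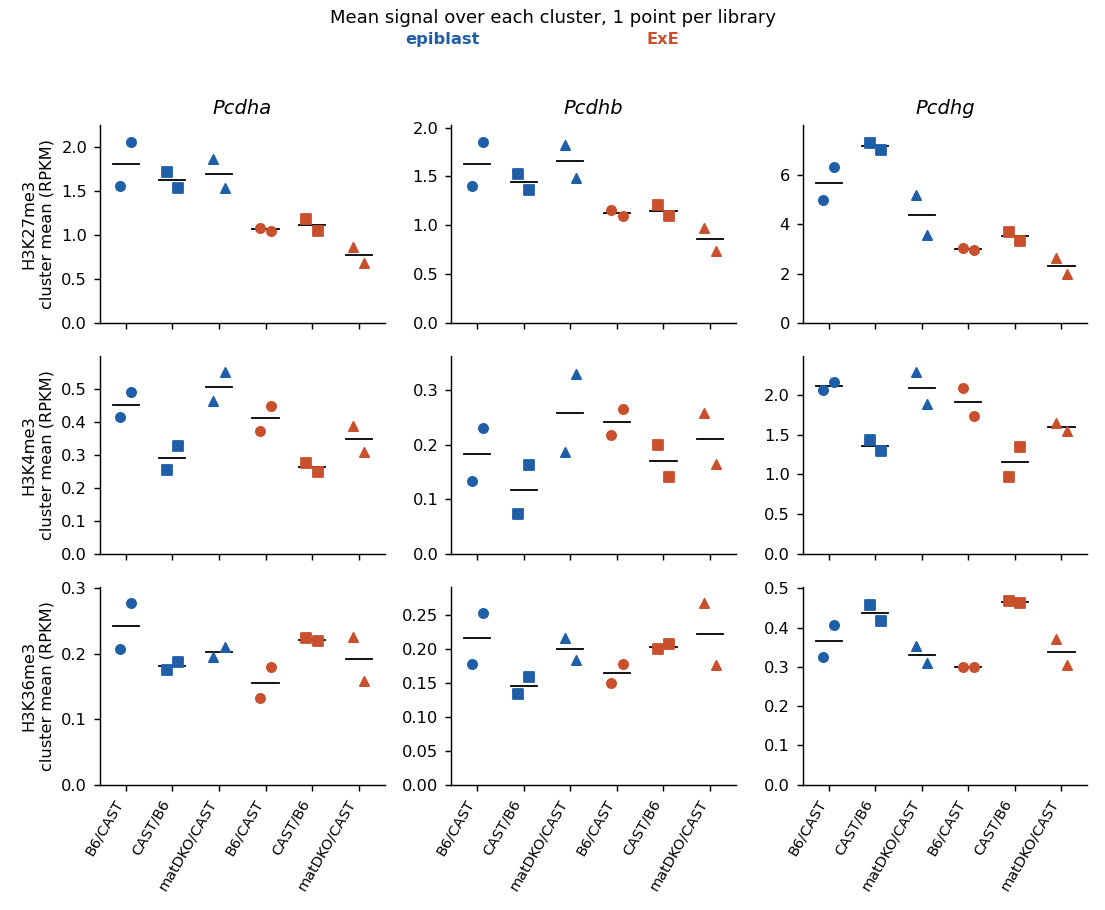
Mean RPKM over all windows of a cluster (columns) for each mark (rows), with 1 point per library, bars at the group mean, Epi in blue and ExE in orange, by cross. The 4 wild-type ExE libraries lie below the 4 wild-type Epi libraries for H3K27me3 in each cluster, while the tissues overlap for H3K4me3 and H3K36me3.

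The other marks showed no such separation of the tissues over the clusters, as the plot of cluster means also shows. H3K4me3 averaged 0.371 ± 0.102 RPKM in Epi and 0.337 ± 0.0925 in ExE over Pcdha, 0.150 ± 0.0657 and 0.206 ± 0.0511 over Pcdhb, and 1.74 ± 0.441 and 1.53 ± 0.482 over Pcdhg (SD, n = 4). The exact permutation p-values were 0.629, 0.286 and 0.543. These tests did not use the replicate numbers, which were taken to pair Epi with ExE for this mark. Every same-numbered wild-type pair fell over Pcdha (0.413 to 0.373, 0.489 to 0.449 and 0.255 to 0.248 RPKM). Each rose over Pcdhb (0.134 to 0.218, 0.231 to 0.265 and 0.073 to 0.142 RPKM), and over Pcdhg they went both ways. Paired differences were not tested. H3K36me3 averaged 0.212 and 0.189 RPKM over Pcdha, 0.181 and 0.184 over Pcdhb, and 0.402 and 0.382 over Pcdhg, with exact permutation p-values of 0.543, 0.771 and 0.829.

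At single promoters, 37 of the 58 genes had lower H3K27me3 in ExE and 0 had higher (limma, Benjamini-Hochberg adjusted p under 0.05 over 8247 promoters; 0 were higher and 38 lower at an unadjusted p under 0.05). Of all promoters tested, 23.7% were lower and 22.9% higher. All 58 promoters passed the filter of a mean of 0.5 RPKM over the 12 libraries, so no member was lost to it. The median log2 difference was −0.50 over the members and 0.05 over all promoters. All 22 Pcdhg promoters, 10 of 14 Pcdha promoters and 5 of 22 Pcdhb promoters were called, and at 33 of the 37 no ExE library reached an Epi library. The call held without each of the 8 wild-type libraries in turn at 27 of the 37, namely 21 in Pcdhg, 5 in Pcdha and 1 in Pcdhb. How many of all called promoters separate the tissues or hold in this way was not counted, so neither count is read as particular to the members. The size of the members' fall depended on the scaling. After quantile normalization between libraries, 25 members were lower and 0 higher, against 20.3% and 21.4% of all promoters, and the members' median was −0.26. The medians of Pcdhg, Pcdha and Pcdhb were −0.93, −0.46 and −0.19 before that scaling, with 22, 10 and 5 calls, and −0.32, −0.30 and −0.20 after it, with 15, 6 and 4 calls.

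**Figure D3:**
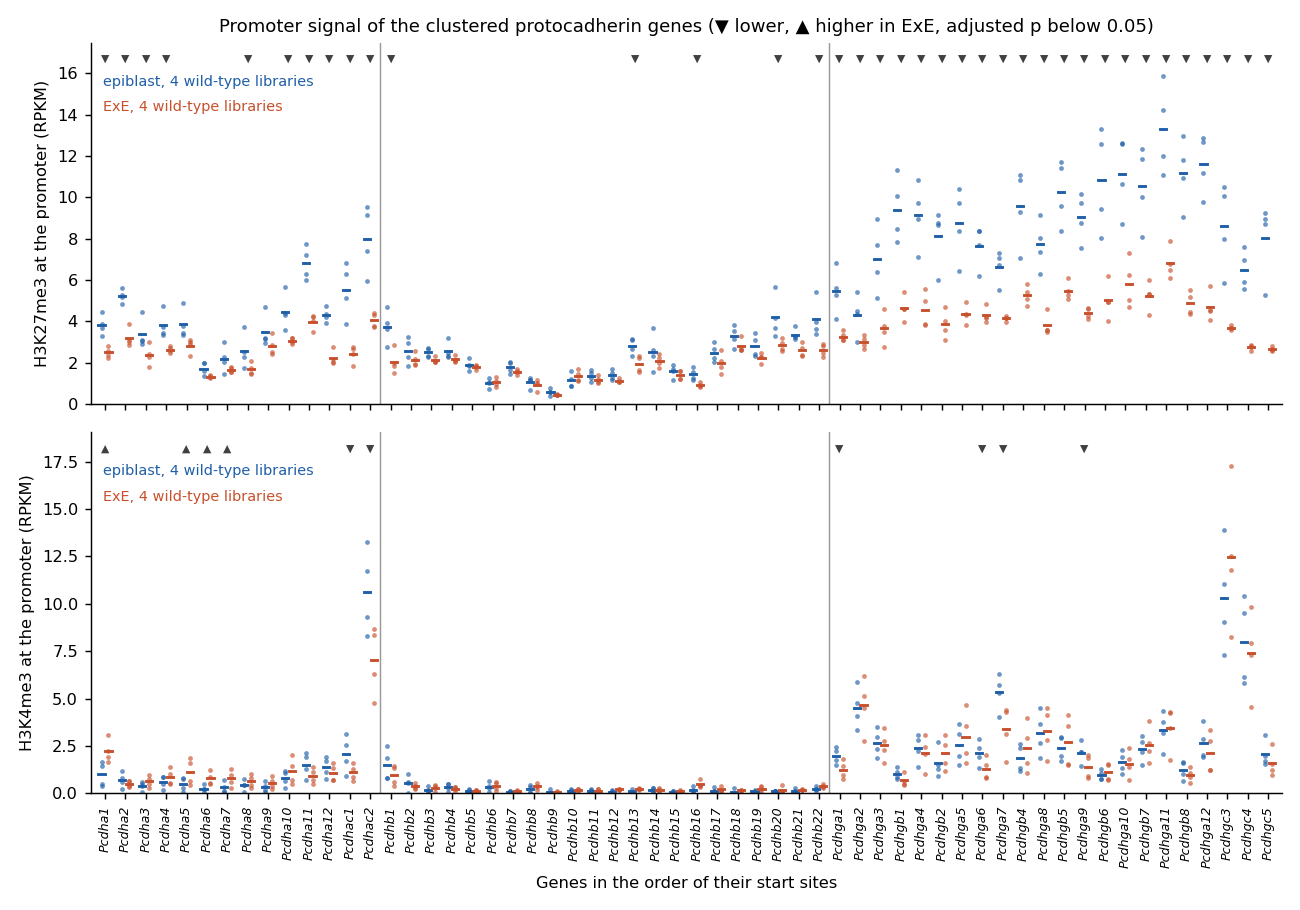
Promoter RPKM of H3K27me3 (upper panel) and H3K4me3 (lower panel) at the 58 genes in the order of their start sites, with 1 point per wild-type library, bars at the mean of 4 libraries, Epi in blue, ExE in orange, and triangles where the limma adjusted p is under 0.05. All 22 Pcdhg promoters carry a downward triangle for H3K27me3, whereas for H3K4me3 4 Pcdha promoters carry an upward triangle and 6 promoters of Pcdha and Pcdhg a downward triangle.

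The Pcdhg cluster held the largest falls. Pcdhgc5, the last gene of the array and a C-type gene (start site at 37819513), had 5.25 and 8.98 RPKM of H3K27me3 in B6/CAST Epi, 9.26 and 8.70 in CAST/B6 Epi, 2.82 and 2.55 in B6/CAST ExE, and 2.62 and 2.67 in CAST/B6 ExE. The tissues did not overlap, and the 4 ExE libraries lay close together. The log2 difference was −1.40 ± 0.18 (SE, limma), a 2.64-fold fall on the log2(RPKM + 0.5) scale with an adjusted p of 1.11e-12. Pcdhga12, the last of the A-type genes, had 9.79, 11.2, 12.7 and 12.9 RPKM in Epi and 4.50, 4.09, 5.69 and 4.55 RPKM in ExE, again without overlap, and fell by 1.22 on the log2 scale (limma adjusted p = 3.02e-10). Its neighbour Pcdhgb8 went from 11.2 ± 1.67 to 4.89 ± 0.565 RPKM (SD, n = 4; log2 −1.11, limma adjusted p = 1.23e-08).

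The other Pcdhg C-type genes fell by like amounts. Pcdhgc3 (start site at 37806364) had 5.87, 7.99, 10.5 and 10.0 RPKM of H3K27me3 in Epi and 3.60, 3.70, 3.68 and 3.83 RPKM in ExE. Pcdhgc4 (start site at 37815079) went from 6.50 ± 0.938 to 2.75 ± 0.134 RPKM. Neither gene's tissues overlapped, and the log2 differences of −1.08 and −1.10 had limma adjusted p-values of 4.99e-08 and 4.49e-08. The highest H3K27me3 of any member in Epi was at Pcdhga11, with 11.1, 12, 14.2 and 15.9 RPKM against 6.46, 6.11, 7.90 and 6.77 RPKM in ExE (log2 −0.91, limma adjusted p = 2.16e-06). This gene was chosen after its values were seen. Its call was lost after quantile normalization, where its log2 difference was −0.13. At the start of the array Pcdhga1 went from 5.45 ± 1.11 to 3.26 ± 0.234 RPKM (log2 −0.64, limma adjusted p = 0.00181). Pcdhga2 was the only Pcdhg gene whose tissues overlapped (4.32 against 3.01 RPKM, log2 −0.44, limma adjusted p = 0.0395), and its call was also lost after quantile normalization and without any 1 of 7 of the 8 libraries.

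In Pcdha the C-type genes had the largest falls. Pcdhac1 (start site at 37090013) had 3.87, 5.13, 6.81 and 6.27 RPKM of H3K27me3 in Epi and 2.40, 1.84, 2.76 and 2.65 RPKM in ExE. Pcdhac2 (start site at 37143503) had 5.97, 7.40, 9.52 and 9.14 RPKM in Epi and 3.71, 3.79, 4.42 and 4.30 RPKM in ExE. Both separated the tissues fully, and their log2 differences were −1.03 ± 0.18 and −0.88 ± 0.18 (SE, limma adjusted p = 3.06e-07 and 1.15e-05). Among the other variable exons, Pcdha12 went from 4.31 to 2.23 RPKM (log2 −0.82), Pcdha11 from 6.81 to 3.99 (log2 −0.70) and Pcdha2 from 5.24 to 3.20 (log2 −0.64). The limma adjusted p-values for these were 5.9e-05, 0.000594 and 0.00196, and that of Pcdha11 missed the threshold after quantile normalization. Pcdha1, the first gene of the array, went from 3.83 ± 0.468 to 2.50 ± 0.241 RPKM (log2 −0.53, limma adjusted p = 0.0117), a call lost in 4 of the 8 fits that left out 1 library.

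Over the 12 libraries, the H3K27me3 pattern of each C-type gene was set against those of the other 57 members by Pearson r, as a description over libraries that share depth and tissue. The closest to Pcdhac1 and to Pcdhgc3 was Pcdhga5, with r of 0.98 each, the closest to Pcdhac2 was Pcdhgb7 (0.97), to Pcdhgc4 it was Pcdhgc5 (0.95), and to Pcdhgc5 it was Pcdhgc3 (0.97). For the Pcdha C-type genes the closest 3 were thus all Pcdhg genes, although the median r over the 57 members was already 0.86 for Pcdhac1 and 0.72 for Pcdhac2.

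The Pcdhb genes had smaller differences, from −0.75 to 0.19 on the log2 scale. Pcdhb1, the first of the array (37264938 to 37267525), had 2.76, 3.63, 4.70 and 3.90 RPKM of H3K27me3 in Epi and 1.82, 1.98, 2.84 and 1.50 RPKM in ExE. The highest ExE library reached the lowest Epi library, and the log2 difference was −0.75 ± 0.18 (SE, limma adjusted p = 0.000232). Pcdhb22, the last of the array (37517871 to 37524479), had 3.97, 5.42, 3.42 and 3.65 RPKM in Epi and 2.80, 2.27, 2.91 and 2.49 RPKM in ExE, without overlap (log2 −0.55, limma adjusted p = 0.0082). The remaining calls were at Pcdhb20 (4.19 against 2.84 RPKM, log2 −0.47), Pcdhb13 (2.82 against 1.94 RPKM, log2 −0.45) and Pcdhb16 (1.44 against 0.919 RPKM, log2 −0.44), with limma adjusted p-values of 0.0259, 0.0315 and 0.0256. These 3 calls lay close to the threshold. They were lost in 6, 6 and 5 of the 8 fits that left out 1 library, in which the log2 differences ran from −0.57 to −0.37 for Pcdhb20, from −0.53 to −0.37 for Pcdhb13 and from −0.54 to −0.35 for Pcdhb16. The call of Pcdhb22 was lost in 3 (−0.65 to −0.45) and that of Pcdhb1 in 0.

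Single windows of the region, those at the promoters included, were lower as well. Of the 602 members with enough H3K27me3 to be tested, 174 were lower in ExE and 0 higher (limma; 2 were higher at an unadjusted p under 0.05), while 3.26% of the 530428 windows tested across the autosomes were lower and 11.8% higher. Outside the promoter windows of the 58 genes 95 of 430 were lower, with a median log2 difference of −0.38, and within them 79 of 172. By cluster the lower windows were 107 of 163 in Pcdhg, 40 of 137 in Pcdha, 13 of 194 in Pcdhb and 14 of 108 between or outside the clusters. The largest fall was at 37812001 to 37813000, just before Pcdhgc4, with a log2 difference of −1.88 ± 0.21 (SE, limma adjusted p = 4e-09). The median difference was −0.40 over the members and 0.23 over all windows tested. Quantile normalization took these medians to −0.45 and 0.02, with 168 members lower against 4.63% of all windows and 0 higher against 3.4%. Without the second B6/CAST Epi library 112 members were lower (1.9% of all windows) and without the second CAST/B6 ExE library 115 (1.97%), and the edgeR test on recovered reads called 385 lower (8.27%). Without the filter on low values limma called 8 of the 1000 members lower (0.105% of all windows). In bins of 10 kb, 49 of 63 members were lower and 1 higher, against 7.37% and 51.6% of all bins.

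H3K27me3 was also lower in ExE than in Epi in embryos of matDKO mothers. Over Pcdhg the 2 matDKO/CAST Epi libraries held 5.16 and 3.56 RPKM and the 2 ExE libraries 2.64 and 1.99 RPKM. Over Pcdha they held 1.86 and 1.53 RPKM in Epi and 0.862 and 0.684 in ExE, and over Pcdhb 1.82 and 1.48 in Epi and 0.978 and 0.734 in ExE. The tissues did not overlap in any cluster, and the log2 differences were −0.90, −1.14 and −0.96 for Pcdhg, Pcdha and Pcdhb. At single promoters 42 of 58 members were lower in ExE and 0 higher within this cross (limma; 0 were higher at an unadjusted p under 0.05), against 7.85% and 9.94% of all promoters. The 42 were 19 of 22 in Pcdhg, 12 of 14 in Pcdha and 11 of 22 in Pcdhb. Among windows 169 members were lower and 1 higher, against 1.22% and 4.28% of all windows. At Pcdhgc5 the matDKO/CAST libraries had 5.72 and 3.36 RPKM in Epi and 2.60 and 2.13 in ExE, again without overlap.

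No promoter or window passed the test between matDKO/CAST and B6/CAST for H3K27me3. In Epi, limma called 0 promoters in either direction (1 higher and 8 lower at an unadjusted p under 0.05; smallest adjusted p 0.193), against 0.158% of all promoters higher and 0.497% lower. In ExE it called 0 (14 lower at an unadjusted p under 0.05; smallest adjusted p 0.792), against 0.0364% higher and 0.0243% lower. The tissue difference in matDKO/CAST minus that in B6/CAST gave 0 calls as well (3 lower at an unadjusted p under 0.05; smallest adjusted p 0.999), and 0% of all promoters passed in either direction. At an unadjusted p under 0.05, the members lower were thus 13.8% in Epi, 24.1% in ExE and 5.17% for the tissue difference, and the shares of all promoters were 12.1%, 3.13% and 1.27%. The Epi result rested on the library labelled matDKO/CAST Epi replicate 1, since without it 11 members were lower, against 12% of all promoters. With both wild-type crosses as the control 14 members were lower in Epi (20.1% of all promoters) and 1 in ExE (0.461%), and after quantile normalization 5 were lower in ExE (0.158%). Among the 602 windows limma called 0 members in Epi, where 0.00415% of all windows passed higher and 0.0119% lower, 0 in ExE (0.0017% in each direction) and 0 for the tissue difference (0.00113% and 0%). At an unadjusted p under 0.05, 14 members were higher and 60 lower in Epi (2.33% and 9.97% of members, 5.88% and 5.17% of all windows). In ExE 4 were higher and 99 lower (0.664% and 16.4% of members, 2.42% and 2.09% of all windows), and for the tissue difference 6 and 42 (0.997% and 6.98% of members, 2.64% and 2.87% of all windows). Over every cluster both matDKO/CAST ExE libraries lay below all wild-type ExE libraries, for Pcdha at 0.862 and 0.684 against 1.04 to 1.18 RPKM. In Epi the genotypes overlapped. The median log2 difference between matDKO/CAST and B6/CAST in ExE was −0.34 over the member promoters and −0.08 over all promoters. Cluster means were not tested between genotypes. For 2 libraries against 2, a missed threshold does not show that the genotypes were alike.

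H3K4me3 changed at fewer promoters and in both directions. Of the 58 genes 38 had enough signal to be tested, namely all 14 of Pcdha, all 22 of Pcdhg and 2 of Pcdhb. Limma called 4 higher and 6 lower in ExE, against 4.23% and 16.5% of the 13376 promoters tested. After quantile normalization 10 were higher and 4 lower, against 19.3% and 17.8% of all promoters, and the Pcdhg promoters moved from 0 higher and 4 lower to 7 higher and 3 lower. With the replicate number as a block, since the numbers were taken to pair these libraries, 5 were higher and 8 lower, against 8.15% and 28% of all promoters, and without the filter on low values 2 were higher and 1 lower of 58, against 2.08% and 8.12%. Quantile normalization took the median log2 difference of all promoters from −0.09 to 0.03 and that of the members from −0.03 to 0.14. The count of lower promoters was 2 without the second B6/CAST Epi library (16.4% of all promoters), 1 without the second B6/CAST ExE library (11.8%) and 2 without the first CAST/B6 ExE library (11.7%).

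The 4 promoters with higher H3K4me3 in ExE were all variable exons near the start of Pcdha. Pcdha1 had 1.66 and 1.46 RPKM in B6/CAST Epi, 0.38 and 0.523 in CAST/B6 Epi, 3.08 and 2.25 in B6/CAST ExE, and 1.90 and 1.66 in CAST/B6 ExE. The tissues met at 1.66 RPKM across the crosses but did not overlap within either cross, and the log2 difference was 0.94 ± 0.19 (SE, limma adjusted p = 1.33e-05). It was the only H3K4me3 call among the members that passed in every alternative setting tried. Pcdha6 had 0.224, 0.478, 0.0759 and 0.224 RPKM in Epi and 1.26, 0.874, 0.521 and 0.533 RPKM in ExE, the only 1 of the 4 without overlap (log2 0.78, limma adjusted p = 0.00111). Pcdha5 went from 0.497 to 1.14 RPKM and Pcdha7 from 0.315 to 0.794 RPKM (log2 0.69 and 0.67, limma adjusted p = 0.00399 and 0.00662). Within matDKO/CAST none of the 4 was called.

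The 6 promoters with lower H3K4me3 in ExE were the 2 Pcdha C-type genes and 4 A-type genes of Pcdhg. Pcdhac2 had 13.3, 11.7, 9.29 and 8.29 RPKM in Epi and 8.68, 8.37, 4.77 and 6.31 RPKM in ExE (log2 −0.58, limma adjusted p = 0.00991). Pcdhac1 had 2.55, 3.16, 1.72 and 0.896 RPKM in Epi and 1.61, 1.29, 0.875 and 0.673 RPKM in ExE (log2 −0.63, limma adjusted p = 0.00697). Both overlapped between tissues across the crosses but were lower in ExE within each cross. Pcdhga7 went from 5.34 to 3.38 RPKM (log2 −0.65), Pcdhga6 from 2.12 to 1.29 (log2 −0.57), Pcdhga1 from 1.97 to 1.25 (log2 −0.52) and Pcdhga9 from 2.16 to 1.41 (log2 −0.52). Their limma adjusted p-values were 0.00307, 0.0169, 0.0325 and 0.0348, and at all 4 the tissues overlapped. Leaving out 1 library lost the call in at least 1 of 8 fits at all 6 of these genes and at Pcdha5 and Pcdha7.

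The H3K4me3 level of the Pcdhg C-type genes did not pass the test between tissues. Pcdhgc3 had 13.9, 11.1, 9.03 and 7.32 RPKM in Epi and 17.3, 11.8, 8.23 and 12.5 RPKM in ExE, the highest of any member in ExE, with full overlap (log2 0.25, limma adjusted p = 0.47). Reads there cannot be told apart from those of BC037039, an antisense RNA gene (37805718 to 37807922) that overlaps the start of Pcdhgc3. Pcdhgc4 had 7.98 and 7.41 RPKM (log2 −0.10, limma adjusted p = 0.882) and Pcdhgc5 2.09 and 1.58 RPKM (log2 −0.34, limma adjusted p = 0.256). At these 3 promoters H3K27me3 thus fell while the H3K4me3 difference was not detectable. The first Pcdhb gene, Pcdhb1, was 1 of the 2 tested in its array and had 1.49 and 0.947 RPKM (log2 −0.45, limma adjusted p = 0.0924). The last, Pcdhb22, did not have enough H3K4me3 to be tested.

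Within matDKO/CAST, limma called 7 members lower in ExE for H3K4me3 and 0 higher (1 higher at an unadjusted p under 0.05), against 11.4% and 1.98% of all promoters. The largest was Pcdhac1, with 3.24 and 3.99 RPKM in Epi and 0.734 and 1.11 RPKM in ExE (log2 −1.54, limma adjusted p = 4.51e-07). Between matDKO/CAST and B6/CAST limma called 0 members in Epi and 0 in ExE (1 higher in Epi and 0 in ExE at an unadjusted p under 0.05), where 0.0449% of all promoters passed higher and 0.0598% lower in Epi, and 0.00748% and 0.172% in ExE. No member passed the test of the tissue difference between these crosses (0 by limma), with 0% of all promoters called, and at an unadjusted p under 0.05, 3 members (7.89%) and 0.964% of all promoters were lower. Limma called 0 windows in these 3 comparisons, where 0.154% of all windows passed higher and 0.0657% lower in Epi, 0.021% and 0.134% in ExE, and 0% and 0.000699% for the tissue difference. At an unadjusted p under 0.05, 5 of 139 members were higher in Epi (3.6%, and 5.42% of all windows), 6 were lower in ExE (4.32% and 4.04%) and 13 were lower for the tissue difference (9.35% and 3.48%).

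Among windows, 139 members had enough H3K4me3 to be tested, of which 18 were higher and 26 lower in ExE by limma, against 23% and 16.8% of all windows tested. Pcdhg held 15 lower and 0 higher of 71, Pcdha 7 lower and 6 higher of 28, Pcdhb 0 lower and 5 higher of 22, and the windows between or outside the clusters 4 lower and 7 higher of 18. The largest fall was at 37178001 to 37179000 in Pcdha (log2 −1.82 ± 0.23 SE, limma adjusted p = 9.43e-13), downstream of Pcdhac2, the last variable exon. It lay in an Epi peak (37177000 to 37180500) that holds the start site of the gene model Gm10544. The next fall was at 37835001 to 37836000, downstream of Pcdhgc5 (log2 −1.57 ± 0.25 SE, limma adjusted p = 1.79e-08). Its Epi peak (37813000 to 37844000) also holds the start sites of the gene models Gm38182 and Gm29994. The largest rise was at 37619001 to 37620000, at the start of the long noncoding RNA gene 4930517L18Rik between Pcdhb and Pcdhg (log2 2.11 ± 0.25 SE, limma adjusted p = 2e-13). Within matDKO/CAST 36 windows were lower and 6 higher, against 15.8% and 10.5%, and after quantile normalization 33 were lower and 17 higher in wild type, against 21.5% and 20.8%. The count of lower windows in wild type was 17, 16 and 14 (12.8%, 13.6% and 12.8% of all windows) without the second B6/CAST Epi, the second B6/CAST ExE and the first CAST/B6 ExE library.

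H3K36me3 was scarce over the clusters. Promoters were not tested for this mark, for which 2 protocadherin promoters, both in Pcdhg, averaged at least 0.5 RPKM over the 12 libraries, and the Epi medians were 0.213 RPKM for Pcdha, 0.210 for Pcdhb and 0.344 for Pcdhg. Of the 102 windows tested, 75 lay between or outside the clusters, 26 in Pcdhg, 1 in Pcdha and 0 in Pcdhb. Limma called 0 of them, against 0.736% of all windows higher and 0.0983% lower. By the unadjusted p alone, under 0.05, 18 were higher and 4 lower (17.6% and 3.92% of members, 12.5% and 3.48% of all windows). Within matDKO/CAST 3 windows were higher and 0 lower, against 1.3% and 0.24%. Between matDKO/CAST and B6/CAST limma called 0, and at most 0.00207% of all windows passed. At an unadjusted p under 0.05, 1 member was higher and 8 lower in Epi (0.98% and 7.84% of members, 4.93% and 4.76% of all windows), and 6 were lower in ExE (5.88% and 5.23%). In bins of 10 kb 7 of 11 members were higher in ExE, against 41.9% of all bins. The bin over Taf7, at 745 kb, had 1.80 RPKM in Epi and 1.40 in ExE, and the last bin, inside Diaph1, had 1.54 and 2.01 RPKM.

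Parent of origin was read from allelic peaks, in which reads that cover a base differing between the parental strains were counted separately for the maternal and the paternal allele. A peak was informative with at least 20 reads in an allele column of a wild-type library. The region held 42 H3K4me3 peaks in Epi (22 informative) and 52 in ExE (32 informative), 17 and 16 H3K27me3 peaks (14 and 15 informative), and 3 and 4 H3K36me3 peaks (2 and 3 informative). The H3K27me3 peaks were wide. One in Epi covered 134000 bases from 37644500 to 37778500, over all genes from Pcdhga1 to Pcdhga12, with 30326 allelic reads in the 12 allele columns, and one in ExE covered 178500 bases from 37645000 to 37823500, with 25459 reads. Others with many reads lay over the start of Pcdha (36921500 to 36981500 in Epi, 6499 reads, and 36919500 to 36981500 in ExE, 5962 reads) and over Pcdhb15 to Pcdhb22 (37468000 to 37547000 in Epi, 5289 reads).

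No peak in the region differed between the parental alleles in the same direction in both reciprocal crosses. EdgeR's quasi-likelihood test called 0 in each of the 6 tables, against 0.108% and 0.319% of informative H3K4me3 peaks in Epi and ExE, 0.325% and 1.35% of H3K27me3 peaks, and 0.0632% and 0.251% of H3K36me3 peaks. In the fit of parent and strain over both crosses, 0 informative peaks in Epi had an unadjusted p under 0.05 for parent, and in ExE there were 1 for H3K4me3, 2 for H3K27me3 and 1 for H3K36me3. The share of all informative peaks at that unadjusted threshold was not counted. The wide Pcdhg peaks had paternal over maternal log2 ratios of −0.0038 in Epi and −0.05 in ExE.

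The 1 call for parent in that fit, of 15 informative peaks, was an H3K27me3 peak in ExE over Pcdhb15 to Pcdhb22 (37465000 to 37529500), against 7.27% of informative peaks in that table. Its maternal share was 51.1% and 47.5% in B6/CAST, 42.9% and 44.1% in CAST/B6, and 54.2% and 49.7% in matDKO/CAST. The paternal allele had more reads in 3 of the 4 wild-type libraries, and the ratio was 1.18-fold (log2 0.24, edgeR adjusted p = 0.00492). Taken alone, B6/CAST gave an edgeR adjusted p of 0.479 and CAST/B6 of 0.00083, and the call was lost without the second B6/CAST or the first CAST/B6 library. With the library as a block, 2 peaks were called in place of 1, and which peak was added was not recorded. In the edgeR fit without the block, 1 Pcdha peak also had an unadjusted p under 0.05 for parent. The largest log2 ratio of the parents among Pcdha peaks was 0.55 in size.

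Summed over a cluster, the alleles of the parents were near balance. Peaks were given to a cluster by their midpoint, so Pcdhb held 5 H3K27me3 peaks in Epi and 3 in ExE. None of the latter covered Pcdhb1. The maternal share of H3K27me3 reads over the clusters lay between 47.6% and 53.7% in the wild-type libraries. For Pcdhg in ExE it was 53.7% and 53.4% in B6/CAST, 49.6% and 48.8% in CAST/B6, and 54.5% and 53.1% in matDKO/CAST, where the share over all autosomal peaks was 55.8% and 53.1%. For Pcdha in matDKO/CAST it was 49.6% and 45.5% in ExE and 48.5% and 49.2% in Epi, where the share over all autosomal peaks was 54.0% and 55.8%. The difference of Pcdha from all peaks was thus -6.25 and -7.61 percentage points in ExE and -5.50 and -6.57 in Epi in matDKO/CAST, and -0.243 and -2.52 in ExE and -3.68 and -1.72 in Epi in B6/CAST. For Pcdhb in matDKO/CAST the share was 51.5% and 50.3% in ExE and 51.6% and 51.6% in Epi, also below that over all peaks in each library. These differences from all peaks were not tested. H3K36me3 over Pcdhg had only 2 to 28 reads in a wild-type library, and its share ran from 33.3% to 64.3%. Of the other marks the widest spread was for H3K4me3 over Pcdhb in ExE, with 39.3% and 48.7% in B6/CAST and 59.7% and 61.1% in CAST/B6, so that the CAST allele had the larger share in all 4 libraries. Over both tissues that cluster held 34 to 338 H3K4me3 reads in a wild-type library. Over 21 comparisons of tissue or of matDKO/CAST with B6/CAST, all exact permutation tests gave an adjusted p of 1. The smallest p was bounded at 0.0286 for 4 against 4 libraries and at 0.333 for 2 against 2, so the latter could not reach 0.05.

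**Figure D4:**
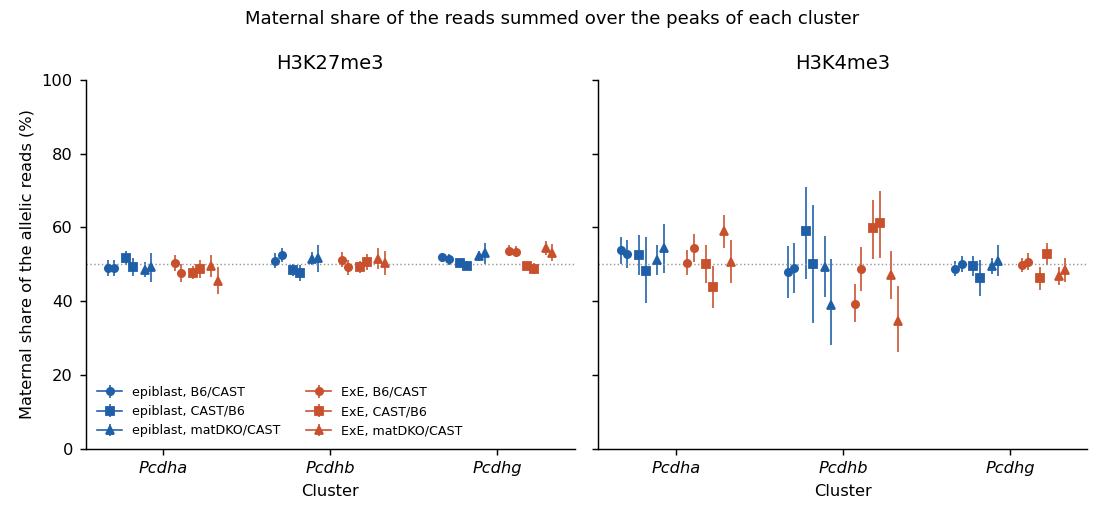
Maternal percent of the allelic reads summed over each cluster, for H3K27me3 and H3K4me3, with 1 point per library, 95% Wilson intervals, Epi in blue, ExE in orange, a symbol for each cross and a line at equal shares. H3K27me3 lies between 47.6% and 53.7% in the wild-type libraries, and H3K4me3 spreads more widely where few reads were counted, as over Pcdhb.

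No peak of the region passed the test of a changed allelic ratio in embryos of matDKO mothers. EdgeR called 0 in each table, against 0.674% and 0.892% of informative H3K4me3 peaks in Epi and ExE, 0.179% and 0.742% of H3K27me3 peaks, and 0.163% and 0.363% of H3K36me3 peaks. At an unadjusted p under 0.05 there were 1 H3K4me3 peak in ExE and 1 H3K27me3 peak in each tissue. The share of all informative peaks at that unadjusted threshold was not counted.

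Alleles were also compared by strain, where the share of called peaks in the region was mostly near that of all informative peaks. Both reciprocal crosses passed the edgeR test in the same strain direction at 3 H3K4me3 peaks in ExE (3.96% of all informative peaks), 1 H3K27me3 peak in ExE (4.32%) and 1 H3K36me3 peak in ExE (1.1%), and at 0 peaks of these marks in Epi (0.841%, 1.01% and 0.424%). In the fit over both crosses the strain term passed at 1 of 22 H3K4me3 peaks in Epi (6.09% of all informative peaks) and 8 of 32 in ExE (19%), at 1 of 14 H3K27me3 peaks in Epi (7.19%) and 3 of 15 in ExE (23.3%), and at 0 of 2 H3K36me3 peaks in Epi (4.45%) and 1 of 3 in ExE (8.22%). At an unadjusted p under 0.05 in both crosses there were 1 H3K4me3, 1 H3K27me3 and 0 H3K36me3 peaks in Epi, and the share of all informative peaks was not counted. With the library as a block the term passed at 4 H3K4me3 and 2 H3K27me3 peaks in Epi and at 12 and 4 in ExE, and 1 H3K27me3 peak in Epi differed in both crosses. Leaving out 1 wild-type library took the 8 H3K4me3 peaks in ExE to 4 or 5, and DESeq2 found 1, 0 and 0 peaks of H3K4me3, H3K27me3 and H3K36me3 in ExE that differed in both crosses. The share of all informative peaks was not counted under these other settings, so these counts cannot be set against the shares above. The authors aligned reads to a genome in which the bases that differ between strains were masked, and the part of any remaining mapping difference in the strain calls was not tested.

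**Figure D5:**
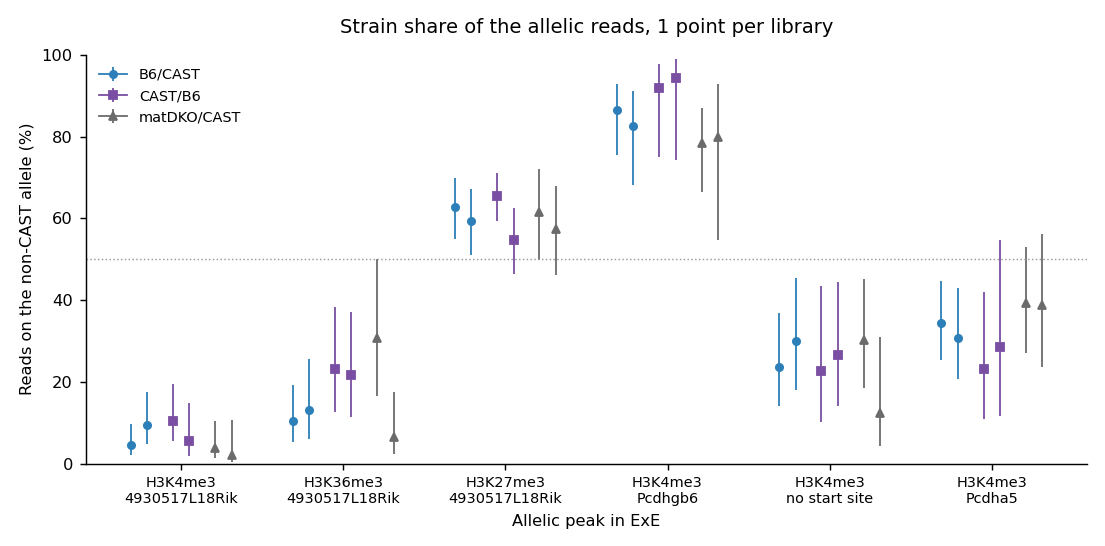
Percent of allelic reads on the allele that is not CAST at 6 ExE peaks, with 1 point per library, 95% Wilson intervals and a line at equal shares. The H3K4me3 and H3K36me3 peaks at 4930517L18Rik lie below 50% in every library, the H3K27me3 peak there above 50% in every library, and the Pcdhgb6 peak between 78.3% and 94.4%.

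The strongest allelic difference was at 4930517L18Rik (37618906 to 37619766, plus strand), whose H3K4me3 peak in ExE spanned 37617500 to 37622000. The allele that is not CAST had 6 of 129 reads and 8 of 85 in B6/CAST, 8 of 76 and 3 of 55 in CAST/B6, and 3 of 80 and 1 of 49 in matDKO/CAST. Its share ran from 2.04% (95% Wilson interval 0.361 to 10.7) to 10.5% (5.43 to 19.4), and the CAST allele was ahead in all 6 libraries whichever parent gave it. The wild-type ratio was 12.7-fold towards CAST (edgeR adjusted p = 7.19e-18). H3K36me3 over 37618500 to 37629500 leaned the same way, with 15.6% of the pooled wild-type reads on B6 (5.38-fold, edgeR adjusted p = 1.05e-17). H3K27me3 over 37601000 to 37629000 in ExE leaned the other way, with 61.4% of reads on B6 (edgeR adjusted p = 2.57e-05), as did the Epi peak over 37606000 to 37629000 with 61.1% (edgeR adjusted p = 0.0293). These intervals and shares cover counting error only.

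Total signal at that start site differed between the tissues too. H3K4me3 at 4930517L18Rik was 0.858, 0.318, 0.101 and 0.747 RPKM in wild-type Epi and 3.00, 2.62, 2.31 and 2.47 RPKM in ExE, and in matDKO/CAST it was 0.554 and 0.832 in Epi and 2.61 and 2.93 in ExE. No Epi library reached an ExE library. H3K27me3 there was 0.937 to 1.28 RPKM in wild-type Epi and 0.413 to 0.766 RPKM in ExE. 4930517L18Rik is not protein-coding and entered no promoter test, so its windows give the only tests of total signal there.

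Among the protocadherins the clearest strain difference was at Pcdhgb6, a B-type gene of Pcdhg, where H3K4me3 in ExE over 37741000 to 37745000 lay mostly on B6. The B6 allele had 51 of 59 reads and 33 of 40 in B6/CAST, and 23 of 25 and 17 of 18 in CAST/B6, and the allele that is not CAST had 47 of 60 and 12 of 15 in matDKO/CAST. All 6 libraries leaned the same way, and the wild-type ratio was 7.96-fold towards B6 (edgeR adjusted p = 3.1e-09). In the other direction, a peak over 37284500 to 37286500 within Pcdhb, which holds no start site, had 25.9% of pooled reads on B6 in ExE (2.99-fold, edgeR adjusted p = 3.68e-05) and 17.3% in Epi (edgeR adjusted p = 0.00341). The peak at Pcdha5 (36959500 to 36961500) had 31.3% on B6 in ExE (edgeR adjusted p = 0.000275).

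The remaining strain calls were small or rested on few reads. H3K4me3 in ExE leaned to CAST at the gene model Gm36858 within Pcdha (36979000 to 36981000, log2 of B6 over CAST −1.61), at Pcdhgc3 and BC037039 (37805000 to 37811000, log2 −0.46) and at Slc25a2 and Taf7 (37637500 to 37645500, log2 −0.25), and to B6 at Pcdha1 (36929500 to 36931500, log2 0.52). H3K27me3 in ExE leaned to CAST over Pcdha8 to Pcdha12 (36988500 to 37028500, log2 −0.21) and over Pcdhb2 to Pcdhb8 (37279500 to 37362000, log2 −0.28). In 1 cross alone, an H3K4me3 peak at the noncoding gene 3222401L13Rik (37654500 to 37657500) passed in B6/CAST ExE (paternal over maternal log2 0.74, edgeR adjusted p = 0.0305) and an H3K27me3 peak at Pcdhac1 (37086000 to 37094000) in CAST/B6 Epi (log2 0.61, edgeR adjusted p = 0.0138). The H3K4me3 peaks with the most reads passed no test of parent. In Epi they covered Pcdhg from 37730000 to 37771500 (2951 reads) and from 37813000 to 37844000 (2460 reads), and Taf7 from 37642000 to 37645500 (1539 reads). In ExE they covered Pcdhg from 37746000 to 37769500 (2203 reads) and from 37813000 to 37828500 (1981 reads), and Slc25a2 and Taf7 (2138 reads). The H3K36me3 peaks with the most reads lay at Diaph1, from 37830500 to 37907500 in Epi (670 reads) and from 37827500 to 37955000 in ExE (1491 reads), and passed no test.

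Genes that share the region but are not protocadherins differed from their neighbours in level. Taf7, a subunit of the general transcription factor TFIID (37640491 to 37644204, minus strand), had 16.1 ± 3.76 RPKM of H3K4me3 in Epi and 17.6 ± 3.49 in ExE (log2 0.13, limma adjusted p = 0.825), with little H3K27me3 (0.793 and 0.417 RPKM, log2 −0.46, limma adjusted p = 0.00737). Slc25a2, a mitochondrial carrier (37637377 to 37638745, minus strand), had more H3K4me3 in ExE (0.230 against 0.850 RPKM, log2 0.85, limma adjusted p = 0.000304) and less H3K27me3 (0.686 against 0.247 RPKM, log2 −0.67, limma adjusted p = 9.03e-05). 3222401L13Rik (37655451 to 37661742, plus strand) had 1.46 to 2.46 RPKM of H3K27me3 in Epi and 0.849 to 1.02 in ExE. Of the 12 neighbouring genes tested, which lay in the region or beside it, limma called 1 higher for H3K4me3 (Slc25a2), against 4.23% of all promoters. It called 2 lower (Dnd1, which acts in germ cells, and Arap3), against 16.5%. Of the 6 tested for H3K27me3 it called 1 higher (Hdac3, a histone deacetylase) and 3 lower (Cd14, Slc25a2 and Taf7), against 22.9% and 23.7%. Cd14, an innate immune receptor gene, went from 9.14 to 4.48 RPKM (log2 −0.94).

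Related genes outside the region are given against the same shares of all promoters in ExE, 16.5% lower and 4.23% higher for H3K4me3 and 23.7% lower and 22.9% higher for H3K27me3. Of 10 protocadherins that are not clustered, limma called 8 lower and 1 higher for H3K4me3 in ExE, with a median log2 difference of −1.14, and 4 higher and 0 lower for H3K27me3 (median −0.08). Pcdh20 went from 6.39 to 1.51 RPKM of H3K4me3 (log2 −1.78), and Pcdh10, Pcdh18, Pcdh7 and Pcdh17 had log2 differences of −1.44, −1.24, −1.18 and −1.18. For H3K27me3 the rises were at Pcdh18 (log2 1.09), Pcdh9 (0.81), Pcdh7 (0.70) and Pcdh12 (0.65), and Pcdh12 also had more H3K4me3 (log2 1.04). Of 17 cadherins tested for H3K4me3, 10 were lower, among them Cdh12 (log2 −1.92), Cdh8 (−1.71) and Cdh9 (−1.50), and 1 was higher. Of 15 tested for H3K27me3, 5 were lower, among them Cdh3, the P-cadherin of the placenta (log2 −0.92), and Cdh6 (−0.89), and 3 were higher. Of 16 genes for factors known to act on the clusters, such as CTCF and cohesin, only Stag1, a cohesin subunit, passed the test for H3K4me3 (2.67 against 12.2 RPKM, log2 2.10, limma adjusted p = 3.88e-28), and of 3 tested for H3K27me3 only Wiz passed (log2 0.70).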

How the data were processed

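ChIP-seq libraries of H3K4me3, H3K27me3 and H3K36me3 and their inputs were made by the authors from pooled E6.5 Epi and ExE. Reads were trimmed with Trim Galore (0.4.4 per the submitters' processing notes, while the study's methods state a version for RNA-seq only) and, per those methods, aligned with Bowtie2 2.3.2 to GRCm38 with strain-differing bases masked, and split by parental allele with SNPsplit. The authors deposited RPKM values for windows of 1 kb, which are relative to library totals without a spike-in, and raw read counts per allele over peaks merged between the wild-type crosses of each tissue. Peaks were called by the authors per cross and tissue with chromstaR, and the peak lists themselves were not used here.

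Window values were whole multiples of 1 read in 100% of low values in every library (tolerance 0.1), which gave the depths and the reads for the edgeR alternative. Promoters (H3K4me3 and H3K27me3) and windows (all marks) with a mean of at least 0.5 RPKM over the 12 libraries of a mark were tested with limma 3.58.1 in R 4.3.3 on log2(RPKM + 0.5), with 6 group means per mark. Fold changes are on that scale, which understates the change of low genes. Allelic counts were tested with edgeR 4.0.16 (quasi-likelihood, TMM factors) in each cross and in a joint fit of parent and strain. DESeq2 1.42.0 was an alternative, and other scalings, filters, pseudocounts, controls and left-out libraries were tried. P-values were adjusted by the Benjamini-Hochberg method over all features of a table, with a threshold of 0.05. Exact permutation tests went through every split of the libraries between the groups. The fits were tested on simulated data.

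Each group held 2 pools. Replicate numbers were checked as a pairing of Epi with ExE by the correlation of same-numbered deviations from group means. For H3K4me3 it was 0.188 to 0.239 and the numbers were taken to pair those libraries. With that block all 10 promoters called for that mark kept their call. More promoters were then called, and which were gained was not followed. For H3K27me3 (−0.07 to 0.10) and H3K36me3 (−0.03 to 0.10) the numbers were not taken to pair them. In allelic tests both alleles came from 1 library, so the library is a true block.

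Genes of Pcdha and of Pcdhg share their last exons and lie within overlapping gene models, and members of an array resemble each other in sequence. Reads were assigned by window, and any that mapped equally well to several members could be lost. Mean input was under 0.2 RPKM in 34 Pcdha, 25 Pcdhb and 0 Pcdhg windows. One of 2 models called Pcdha11 in GENCODE is Pcdha10 in RefSeq and was named so. Members, gene lists and tests were chosen with earlier results of these data known. Named were the 5 promoters with the largest change among those past the threshold in each cluster and mark, the first and last gene of each cluster, the C-type genes, every allelic peak past the threshold, the 3 peaks with the most reads in each table, other genes starting in the region, and up to 5 called genes of each list.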

Additional observations from a re-analysis of the deposited data

Results flagged for a closer look

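One value stood apart from the other libraries of its group. The maternal share of H3K27me3 reads over Pcdha in wild-type Epi was 51.6% in the first CAST/B6 library, while the nearest of the other 3 libraries was at 49.2%, a gap of 0.892 of the group's whole range. Groups of 4 to 9 libraries were examined for 38 values, and chance sets apart about 1 in 20 such groups. The share is within a few percentage points of balance in all 4 libraries.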

How the results depend on the processing

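Of the 37 promoters with lower H3K27me3 in ExE, 18 passed in all 16 alternative settings, as did 1 of the 10 H3K4me3 calls, and no called promoter reversed in any of them. Values are relative to library totals, so a change of a mark over the whole genome cannot be seen. With 2 libraries a group, and Epi H3K27me3 at 3680000 to 14800000 reads, differences between genotypes could be missed. The cause of the changes below was not tested, except that settings without a filter test more features. Counts in this section are of members. Where no share of all features stands here or above, they are not read as results about the members.

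Without a filter on low values limma called 2 promoters higher and 1 lower for H3K4me3, and windows came to 6 higher and 9 lower for H3K4me3, 8 lower for H3K27me3, and 1 higher and 1 lower for H3K36me3. Quantile normalization gave 10 higher H3K4me3 promoters and, for matDKO/CAST against B6/CAST in ExE, 5 promoters and 7 windows lower in H3K27me3. With both wild-type crosses as the control, matDKO/CAST Epi had 3 H3K4me3 promoters and 9 windows higher, against 0.897% of all promoters and 4.05% of all windows. It had 14 H3K27me3 promoters and 6 windows lower, against 20.1% and 0.774%. In matDKO/CAST ExE 1 H3K27me3 promoter was lower (0.461% of all promoters). Relative to input, 1 promoter and 2 windows were higher for H3K27me3 and 2 windows for H3K36me3. A pseudocount of 1 made 1 window higher for each of these marks. EdgeR on recovered reads called 385 windows lower for H3K27me3, and 4 higher and 4 lower for H3K36me3. Bins of 10 kb gave 4 of 28 members higher and 9 lower for H3K4me3 (14.3% and 32.1%, against 15.6% and 21.6% of all bins). They gave 1 higher and 49 lower for H3K27me3 (51.6% and 7.37% of all bins) and 7 higher for H3K36me3 (41.9%).

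Leaving out 1 library at a time, the tissue comparison gave 1 to 5 lower H3K4me3 promoters, 14 to 27 lower H3K4me3 windows, and 0 to 1 higher and 112 to 181 lower H3K27me3 windows. For matDKO/CAST against B6/CAST it gave 0 to 11 lower H3K27me3 promoters in Epi and 0 to 1 in ExE, 0 to 6 higher and 0 to 60 lower H3K27me3 windows in Epi, and 0 to 7 lower H3K36me3 windows in Epi. The high ends in Epi came without the first H3K27me3 library and without the third H3K36me3 library of matDKO/CAST, and the 1 ExE promoter without the second. The left-out group then held 1 library, assumed to vary like the others. No share of all windows is given for these genotype fits, so their window counts are not read as results about the members. The strain term of the allelic fit passed at 0 to 2 H3K4me3 peaks in Epi and 4 to 5 in ExE, and at 0 to 1 H3K27me3 peaks in Epi and 1 to 3 in ExE, and the parent term at 0 to 1 H3K27me3 peaks in ExE.

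With the replicate block the tissue comparison gave 5 higher and 8 lower H3K4me3 promoters and 31 lower H3K27me3 promoters. With the library as a block in the allelic fits, the strain term passed at 4 H3K4me3 and 2 H3K27me3 peaks in Epi, the parent term at 2 H3K27me3 peaks in ExE, and 1 H3K27me3 peak in Epi differed by strain in both crosses. The blocks moved no other count by over 1.5 times. DESeq2 found 1 H3K4me3, 0 H3K27me3 and 0 H3K36me3 peaks in ExE that differed by strain in both crosses. Leaving out a library within a single cross left no residual degrees of freedom, and medians over windows were 0 for H3K4me3 in Pcdha and Pcdhb, so neither gave a value.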
